A study of Homo sapiens with 44 samples.

Results

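The genes described here are 10 transcripts that encode feedback inhibitors of mitogen-activated protein kinase (MAPK) signalling: the dual-specificity phosphatases DUSP1, DUSP4, DUSP5, DUSP6 and DUSP10, the Sprouty genes SPRY1, SPRY2 and SPRY4, and the Sprouty-related genes SPRED1 and SPRED2. They were picked by symbol among the 40663 gene symbols of the deposited count table. The rule used none of their values, but the genes were chosen with earlier results of these data known. Their levels come from bulk RNA-seq of Ccd-18Co cells, fibroblasts of normal human colon that are sold as a line and were used here at up to passage 20. After 72 h without serum, the cells were left unstimulated or were given 1 of 10 cytokines for 24 h: TNF, IL-1β, IL-17A, oncostatin M (OSM), IL-6, IL-22, IL-13, TGF-β1, IFNα or IFNγ. Each of these 11 groups held 4 replicate libraries. The labels give a dose of 10 ng/ml for every cytokine but IL-1β, which was used at 0.1 ng/ml by the labels and methods, while a figure legend of the study gives another dose. All groups shared the serum-free medium and the 24 h time point, so the comparisons concern the late level of each transcript and not its early course.

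MAPK cascades carry signals from receptors for growth factors, cytokines and stress to the nucleus through the kinases ERK, p38 and JNK. Dual-specificity phosphatases remove the activating phosphates from these kinases. DUSP6 acts in the cytoplasm with a preference for ERK, DUSP4 and DUSP5 are nuclear, DUSP5 being selective for ERK, DUSP1 is a nuclear phosphatase with broad activity towards p38, JNK and ERK, and DUSP10 prefers p38 and JNK. Sprouty and SPRED proteins act further upstream and restrain signalling from receptor tyrosine kinases to RAS and RAF. Several of these genes are transcribed in response to the cascade that they restrain, so that their transcripts are widely used as a readout of pathway activity. None of these activities was measured here.

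Total counts per library lay between 742173 and 2213424 (median 1480883), and 3 counts in a library corresponded to 1.39 to 3.85 CPM (counts scaled to the normalized library size). All 8 fibroblast markers were detected in every group, with a summed level of 16587 to 52127 CPM. The summed level was 0 to 26.6 CPM for 4 epithelial markers, 0 to 4.01 CPM for 4 immune markers, of which CD3E and CD79A were at 0 throughout, and 0 to 2.65 CPM for 3 endothelial markers. Of the epithelial markers, VIL1 reached 26.6 CPM, and EPCAM, CDH1 and KRT20 did not exceed 1.71 CPM in any library. The 3 smooth muscle markers summed to 217 to 1094 CPM, nearly all of it from ACTG2 (216 to 1093 CPM). DES did not exceed 2.37 CPM in any library, and MYH11 did not exceed 14.7 CPM. The sources do not say whether the replicates came from separate cultures, so p-values measure only the spread between these libraries. In a bulk library, fewer cells with a transcript cannot be told apart from less RNA per cell.

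In unstimulated cells, DUSP1 and DUSP10 had the highest levels of the 10 genes once scaled to transcript length. DUSP1 stood at 19.3 ± 7.40 CPM per kilobase of transcript (SD, n = 4) and DUSP10 at 16.3 ± 3.5. A middle group followed, with SPRED1 at 6.26 ± 3.25, DUSP6 at 6.08 ± 1.70, SPRY2 at 5.45 ± 1.83 and SPRY1 at 5.32 ± 1.5 CPM per kilobase. SPRED2 (1.60 ± 0.34), DUSP5 (1.15 ± 0.95) and SPRY4 (0.64 ± 0.27) were low on the same scale. DUSP4 was not detected in unstimulated cells. It had 0 counts in 41 of 44 libraries and 1 count in 1 library each of IL-17A, IFNα and IFNγ, which is below the limit of 3 counts, and it did not pass the filter on low counts. The other 9 genes passed and were tested among 9513 genes.

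The 250 bases before the annotated start of the 4 genes with a called change are shown here because those are the transcripts on which the results turn. The sequences are from RefSeq on build GRCh38.p14. Windows were taken for 8 of the 10 genes, and none was taken for DUSP4 or DUSP5. Capitals mark matches on either strand to the motifs searched, and all 4 genes are on the minus strand, printed 5′ to 3′ in the direction of transcription. The windows are chr5:172771196-172771445 for DUSP1, chr12:89352502-89352751 for DUSP6, chr1:221742090-221742339 for DUSP10 and chr13:80341127-80341376 for SPRY2, the most upstream of the listed starts of each gene, and 0 of their bases lie in annotated exons of the same gene.
DUSP1: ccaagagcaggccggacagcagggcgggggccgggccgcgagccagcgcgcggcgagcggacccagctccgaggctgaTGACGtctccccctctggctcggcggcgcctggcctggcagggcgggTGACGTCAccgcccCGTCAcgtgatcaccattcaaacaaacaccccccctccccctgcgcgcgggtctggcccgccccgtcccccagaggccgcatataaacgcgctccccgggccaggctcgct
DUSP6: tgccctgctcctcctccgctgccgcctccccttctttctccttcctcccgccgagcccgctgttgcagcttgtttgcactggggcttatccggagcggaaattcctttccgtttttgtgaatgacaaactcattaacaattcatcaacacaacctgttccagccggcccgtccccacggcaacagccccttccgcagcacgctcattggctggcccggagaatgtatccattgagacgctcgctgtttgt
DUSP10: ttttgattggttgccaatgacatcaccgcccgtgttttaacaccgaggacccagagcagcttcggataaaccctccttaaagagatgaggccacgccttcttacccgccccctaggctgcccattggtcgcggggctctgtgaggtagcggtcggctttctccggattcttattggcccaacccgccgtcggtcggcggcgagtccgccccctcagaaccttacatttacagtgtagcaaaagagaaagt
SPRY2: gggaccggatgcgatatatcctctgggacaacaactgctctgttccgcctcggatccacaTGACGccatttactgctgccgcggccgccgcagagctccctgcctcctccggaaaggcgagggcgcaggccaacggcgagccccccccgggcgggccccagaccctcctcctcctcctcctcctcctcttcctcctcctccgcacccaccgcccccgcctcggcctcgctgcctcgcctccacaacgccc

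The motifs searched were the cyclic AMP response element TGACGTCA (present in 1.65% of 35116 RefSeq windows of this length), its core TGACG (21.2%), which lies within it, the AP-1 motif TGANTCA (6.57%), the NF-κB motif (5.21%), the ETS motif CCGGAAG (8.52%) and the interferon gamma-activated site TTCNNNGAA (6.57%). The DUSP1 window held the full cyclic AMP response element, its first base 125 bases before the start, and further cores that began 172 and 111 bases before it. The SPRY2 window held 1 core, 190 bases before the start. The DUSP6 and DUSP10 windows held no match to the letters searched. Guanine and cytosine made up 74.4% of the DUSP1 window and 70.4% of the SPRY2 window, against 57.2% for DUSP6 and 56.4% for DUSP10.

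After 24 h, 4 of the 9 tested genes were called changed with at least 1 of the 10 cytokines. The share of all tested genes called with at least 1 cytokine was not computed, so this count is no result about the group. DUSP1 rose with TNF, TGF-β1 and IFNγ, SPRY2 rose with TNF, DUSP6 fell with TGF-β1, and DUSP10 fell with OSM, TNF and IL-13. A change was called where the quasi-likelihood test of edgeR gave an adjusted p under 0.05 (Benjamini-Hochberg over all tested genes). Of the 90 comparisons of a gene with unstimulated cells, 4 rose and 4 fell. TNF gave the most calls, with 2 genes higher (background 5.37% of all tested genes) and 1 lower (6.09%). TGF-β1 gave 1 higher (2.61%) and 1 lower (3.08%), IFNγ 1 higher (5.52%) and 0 lower (5.13%), IL-13 0 higher (1.53%) and 1 lower (2.4%), and OSM 0 higher (1.42%) and 1 lower (2.54%). With 9 genes tested, a single call is not a result about the genes as a group, and the calls are therefore given gene by gene. The median log2 fold change of the 9 genes lay between -0.53 with IL-13 and 0.50 with IFNγ, beside -0.05 and -0.01 over all tested genes with the same cytokines.

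The other 5 cytokines gave 0 calls among the 9 genes with edgeR. For IL-1β, with 3.46% of all tested genes called higher and 3.92% lower, 4 of the 9 genes had an unadjusted p under 0.05 (16.9% of all tested genes did) and DESeq2 called 0. For IL-17A (0.599% higher, 0.925% lower), 1 gene had an unadjusted p under 0.05 (12.6% of all genes) and DESeq2 called 0, with 4 of the 9 genes left without an adjusted p by its filter. For IFNα (4.99% higher, 4.86% lower), 1 gene had an unadjusted p under 0.05 (21.4% of all genes) and DESeq2 called 1, which was DUSP1. IL-6 (0.0105% higher, 0% lower) had 0 genes at an unadjusted p under 0.05 (2.45% of all genes) and 0 with DESeq2. IL-22 (0% higher, 0% lower) had 2 genes at an unadjusted p under 0.05, SPRY1 and SPRY2 (10.9% of all genes), and DESeq2 called 0, its filter having left all 9 genes without an adjusted p. The fold-change threshold of the study, an absolute log2 fold change above 1.5 beside the adjusted p, left 3 of the 8 calls: DUSP10 with OSM, SPRY2 with TNF and DUSP6 with TGF-β1.

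**Figure D1:**
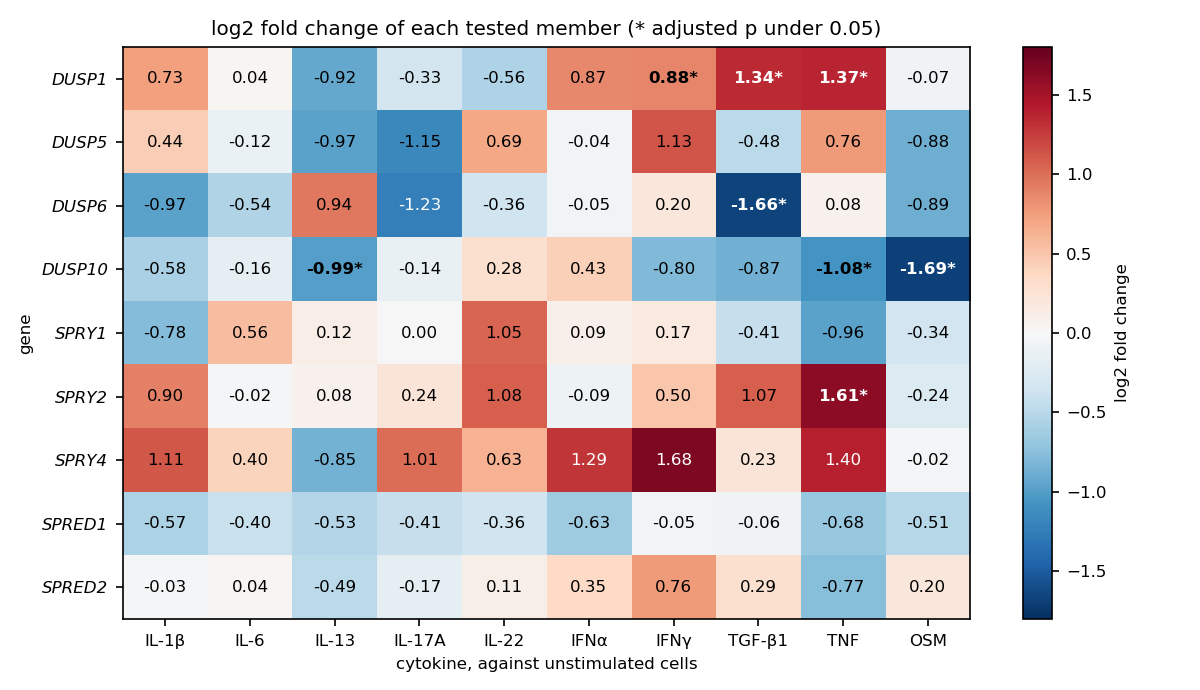
Heat map of the log2 fold change of each tested gene (vertical axis) with each cytokine (horizontal axis) against unstimulated cells, red for higher and blue for lower, with the value in each cell and an asterisk and bold type where the adjusted p (edgeR) was under 0.05. The 8 marked cells lie in the DUSP1, DUSP6, DUSP10 and SPRY2 lines, from -1.69 for DUSP10 with OSM to 1.61 for SPRY2 with TNF.

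DUSP1 (chr5:172768096-172771195 on GRCh38, as the coordinates that follow, from GENCODE release 44), the broad nuclear phosphatase and a classical immediate early gene, was higher 24 h after TNF or TGF-β1 than without stimulation. The unstimulated libraries stood at 48.5, 26.2, 26.0 and 54.6 CPM, and the TNF libraries at 100 (replicate 1), 51.7, 111 and 139 CPM. Replicate 2 of TNF lay within the unstimulated range and the other 3 lay above it. The increase was 2.58-fold (log2 fold change 1.37 ± 0.30, SE, edgeR adjusted p = 0.000928). The TGF-β1 libraries stood at 78.8, 129, 78.0 and 112 CPM. All 4 lay above every unstimulated library, with a log2 fold change of 1.34 ± 0.30 (edgeR adjusted p = 0.00280).

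The rise of DUSP1 with IFNγ was smaller and uneven, at 36.9, 55.7, 72.8 and 122 CPM. Of these 4 libraries, 3 lay above the unstimulated range, and replicate 4 lay far above the others. The log2 fold change was 0.88 ± 0.30 (edgeR adjusted p = 0.0469). It was 0.51 with an edgeR adjusted p of 0.360 without IFNγ replicate 4, and the call was also lost without IFNγ replicate 3 (0.92, 0.0756), unstimulated replicate 2 (0.76, 0.163) or unstimulated replicate 3 (0.77, 0.138). The IFNα libraries gave a similar mean from a narrower range, at 75.5, 51.4, 68.3 and 90.3 CPM. Their log2 fold change of 0.87 ± 0.30 missed the threshold (edgeR adjusted p = 0.0522). It passed without unstimulated replicate 1 (1.00, 0.0423), unstimulated replicate 4 (1.08, 0.0270) or IFNα replicate 2 (1.02, 0.0312), and with all libraries under DESeq2's Wald test (0.89, adjusted p = 0.0379) or its size factors in edgeR (0.89, 0.0477).

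IL-13 gave the lowest DUSP1 mean of the 11 groups, with libraries at 21.2, 21.6, 23.1 and 16.0 CPM. All 4 libraries lay below the unstimulated range, but the log2 fold change of -0.92 ± 0.32 did not pass the threshold (edgeR adjusted p = 0.0966). With IL-1β, DUSP1 stood at 49.95, 51.7, 72.4 and 86.3 CPM, 2 libraries above the unstimulated range (0.73 ± 0.30, edgeR adjusted p = 0.151). The means with IL-6 (40.2 ± 7.22 CPM), OSM (37.1 ± 6.13), IL-17A (31.1 ± 7.97) and IL-22 (27.0 ± 8.56) lay on either side of the unstimulated mean of 38.9 ± 14.9 CPM, and their ranges overlapped that of unstimulated cells.

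DUSP10 (chr1:221701424-221742089), the phosphatase of p38 and JNK, was lower with OSM, TNF and IL-13. The unstimulated libraries stood at 31.8, 52.5, 46.4 and 38.3 CPM, and the OSM libraries at 12.8, 12.4, 16.0 and 10.7 CPM. The groups did not overlap, and the OSM libraries lay close together. DUSP10 was 3.22-fold lower with OSM, a log2 fold change of -1.69 ± 0.29 (edgeR adjusted p = 9.52e-05). This call was made under every alternative tried, with log2 fold changes between -1.81 and -1.55.

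TNF left DUSP10 at 19.1, 25.8, 12.8 and 22.0 CPM, and IL-13 at 21.2, 17.8, 28.9 and 16.0 CPM. In both groups all 4 libraries lay below the lowest unstimulated library. The log2 fold change was -1.08 ± 0.28 with TNF (edgeR adjusted p = 0.00599) and -0.99 ± 0.28 with IL-13 (edgeR adjusted p = 0.0282). The IL-13 call was the less stable of the pair. It was lost when any of 6 libraries was left out (unstimulated replicates 2, 3 and 4 and IL-13 replicates 1, 2 and 4), with edgeR adjusted p between 0.0513 and 0.125 and log2 fold changes between -1.03 and -0.86.

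IFNγ (30.9, 30.7, 15.6 and 19.2 CPM) and TGF-β1 (24.2, 30.8, 14.5 and 22.7 CPM) also had every DUSP10 library below the unstimulated range. Their log2 fold changes of -0.80 ± 0.28 (edgeR adjusted p = 0.0526) and -0.87 ± 0.28 (edgeR adjusted p = 0.0522) just missed the threshold. The IFNγ value passed without unstimulated replicate 1 (-0.92, 0.0318), IFNγ replicate 1 (-0.91, 0.0451) or IFNγ replicate 2 (-0.91, 0.0362), and the TGF-β1 value without unstimulated replicate 1 (-0.99, 0.0359) or TGF-β1 replicate 2 (-1.02, 0.0445). With all libraries, both passed under DESeq2's Wald test, at -0.76 with IFNγ (adjusted p = 0.0461) and -0.84 with TGF-β1 (adjusted p = 0.0418). IFNα and IL-22 lay on the other side of the unstimulated mean of 42.3 ± 9.07 CPM, at 56.9 ± 8.84 and 51.3 ± 8.88 CPM, and their ranges overlapped it (edgeR adjusted p = 0.373 and 0.792). IL-17A (38.1 ± 6.83), IL-6 (37.6 ± 6.50) and IL-1β (28.1 ± 10.9) overlapped it too.

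DUSP6 (chr12:89347235-89352501), the cytoplasmic ERK phosphatase whose transcript commonly follows ERK activity, fell with TGF-β1. The unstimulated libraries stood at 19.6, 14.6, 28.1 and 26.0 CPM, and the TGF-β1 libraries at 5.46, 8.51, 8.17 and 5.87 CPM, from 7 to 9 counts each. The groups did not overlap. DUSP6 was 3.16-fold lower (log2 fold change -1.66 ± 0.43, edgeR adjusted p = 0.0129). Without TGF-β1 replicate 1 the log2 fold change was -1.55 with an edgeR adjusted p of 0.0570, and with only the 8 libraries of both groups it was -1.63 and 0.0533, so the call was lost in both.

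IL-17A gave DUSP6 levels of 10.2, 9.36, 10.4 and 7.47 CPM, all below the unstimulated range, with a log2 fold change of -1.23 ± 0.41 that did not pass (edgeR adjusted p = 0.130). IL-13 lay on the opposite side, at 44.5, 37.8, 34.6 and 53.3 CPM. All 4 IL-13 libraries lay above every unstimulated library, yet the log2 fold change of 0.94 ± 0.38 did not pass the test over all genes (edgeR adjusted p = 0.183). The IL-1β libraries ranged from 3.89 to 19.7 CPM (-0.97 ± 0.40, edgeR adjusted p = 0.162) and the OSM libraries from 4.26 to 22.3 CPM (-0.89 ± 0.40, edgeR adjusted p = 0.262). IL-6 stood at 15.1 ± 1.67, IL-22 at 17.8 ± 11.7, IFNα at 21.4 ± 7.0, TNF at 23.4 ± 8.09 and IFNγ at 25.3 ± 6.51 CPM, and their ranges overlapped that of unstimulated cells.

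DUSP5 (chr10:110497907-110511533), the nuclear phosphatase selective for ERK, was near the limit of detection. Unstimulated libraries held 1.37 to 6.33 CPM, from 2 to 9 counts, and no library of any group held more than 10.2 CPM. The highest mean was 6.2 ± 3.54 CPM with IFNγ and the lowest 1.17 ± 0.46 CPM with IL-17A. No DUSP5 comparison passed the threshold (edgeR adjusted p of 0.489 or more). Standard errors of 0.89 to 0.98 on the log2 scale meant that differences of 1 on that scale were not detectable at this depth.

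**Figure D2:**
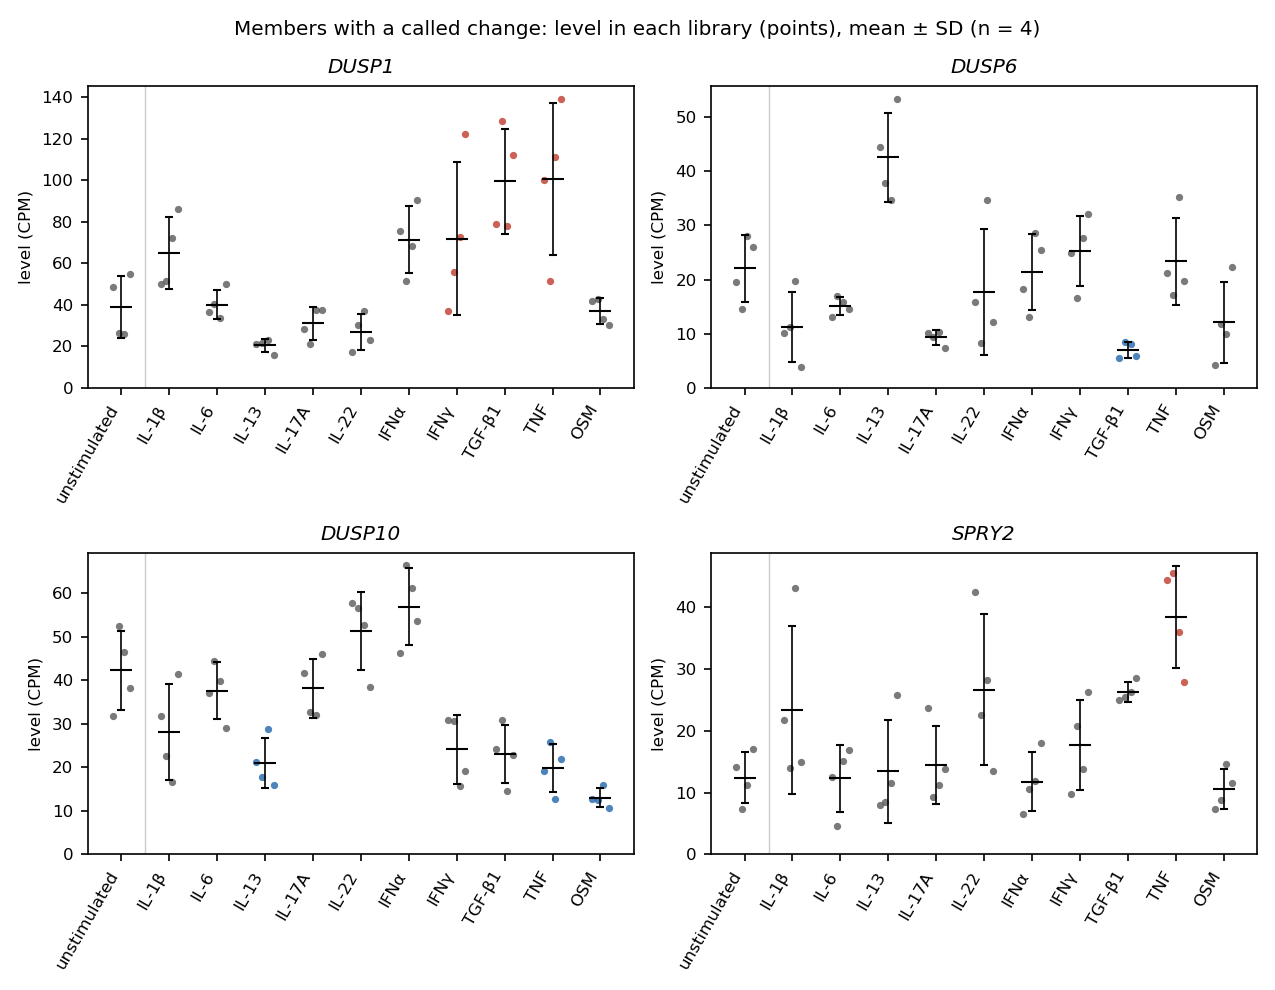
Level of DUSP1, DUSP6, DUSP10 and SPRY2 (vertical axes, CPM, each panel on its own scale from 0) in each library (points) of the 11 groups (horizontal axes), with the mean and SD of 4 libraries in black. Red points mark groups called higher and blue points groups called lower than unstimulated cells: DUSP1 with TNF, TGF-β1 and IFNγ, SPRY2 with TNF, DUSP6 with TGF-β1, and DUSP10 with OSM, TNF and IL-13.

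SPRY2 (chr13:80335976-80341126), an inhibitor of receptor tyrosine kinase signalling to RAS, was the only Sprouty or SPRED gene of the 5 with a call, and its call was with TNF. Unstimulated libraries stood at 14.2, 7.29, 11.3 and 17.1 CPM and TNF libraries at 44.5, 45.6, 36.0 and 27.9 CPM. Every TNF library lay above every unstimulated library. The increase was 3.05-fold (log2 fold change 1.61 ± 0.42, edgeR adjusted p = 0.00654), and it was called under each alternative tried, with log2 fold changes between 1.45 and 1.81.

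With TGF-β1, SPRY2 stood at 25.0, 25.5, 26.3 and 28.6 CPM. These 4 libraries were close together and all above the unstimulated range, but the log2 fold change of 1.07 ± 0.42 did not pass (edgeR adjusted p = 0.134). With IL-22 the levels were 42.5, 22.6, 28.2 and 13.4 CPM (1.08 ± 0.42, edgeR adjusted p = 0.312), and with IL-1β 21.7, 13.9, 43.2 and 14.9 CPM (0.90 ± 0.42, edgeR adjusted p = 0.245). Both groups spread over much of the range between unstimulated and TNF libraries. The other means were 17.7 ± 7.33 CPM for IFNγ, 14.5 ± 6.36 for IL-17A, 13.4 ± 8.36 for IL-13, 12.3 ± 5.45 for IL-6, 11.8 ± 4.75 for IFNα and 10.6 ± 3.23 for OSM, beside 12.5 ± 4.18 for unstimulated cells.

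SPRY1 (chr4:123396795-123403760), a close relative of SPRY2, had no call. Its highest mean was 29.3 ± 11.3 CPM with IL-22, where the libraries stood at 22.8, 22.6, 46.1 and 25.6 CPM, all above the unstimulated range of 8.02 to 16.2 CPM. The log2 fold change of 1.05 ± 0.45 did not pass (edgeR adjusted p = 0.378). Its lowest mean was with TNF, at 7.09 ± 3.79 CPM, a log2 fold change of -0.96 ± 0.48 (edgeR adjusted p = 0.211), the opposite sign to SPRY2. Next lowest was IL-1β, at 7.98 ± 3.47 CPM (-0.78 ± 0.47, edgeR adjusted p = 0.438).

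SPRY4 (chr5:142310427-142326455) was low, with 1.96 to 4.37 CPM in unstimulated libraries. Its mean was highest with IFNγ, at 8.29, 4.98, 13.9 and 13.5 CPM. All 4 values lay above the unstimulated range, but each unstimulated library held only 3 to 6 counts, and the log2 fold change of 1.68 ± 0.69 did not pass (edgeR adjusted p = 0.111). The log2 fold change was 1.40 ± 0.68 with TNF (edgeR adjusted p = 0.203), 1.29 ± 0.69 with IFNα (edgeR adjusted p = 0.281) and 1.11 ± 0.68 with IL-1β (edgeR adjusted p = 0.456). IL-13 had the lowest mean, 1.62 ± 1.77 CPM.

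The SPRED genes, whose proteins bring the RAS inhibitor neurofibromin to the membrane, had no call in either case. SPRED1 (chr15:38252836-38357249) ranged in mean from 28.5 ± 8.73 CPM with TNF to 45.5 ± 23.6 CPM in unstimulated cells, a ratio of 1.60 between the highest and the lowest group, against ratios of 2.91 to 6.28 for the other 8 tested genes. The unstimulated SPRED1 libraries were themselves spread widely, at 22.0, 30.6, 55.6 and 73.8 CPM, and covered most of the other groups. All 10 SPRED1 log2 fold changes were negative, between -0.68 and -0.05, a count that rests on the same 4 unstimulated libraries (edgeR adjusted p of 0.245 or more). SPRED2 (chr2:65310851-65432637) ranged from 4.22 ± 1.26 CPM with TNF to 12.3 ± 4.40 CPM with IFNγ, beside 7.21 ± 1.55 CPM in unstimulated cells (edgeR adjusted p of 0.475 or more for every cytokine).

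**Figure D3:**
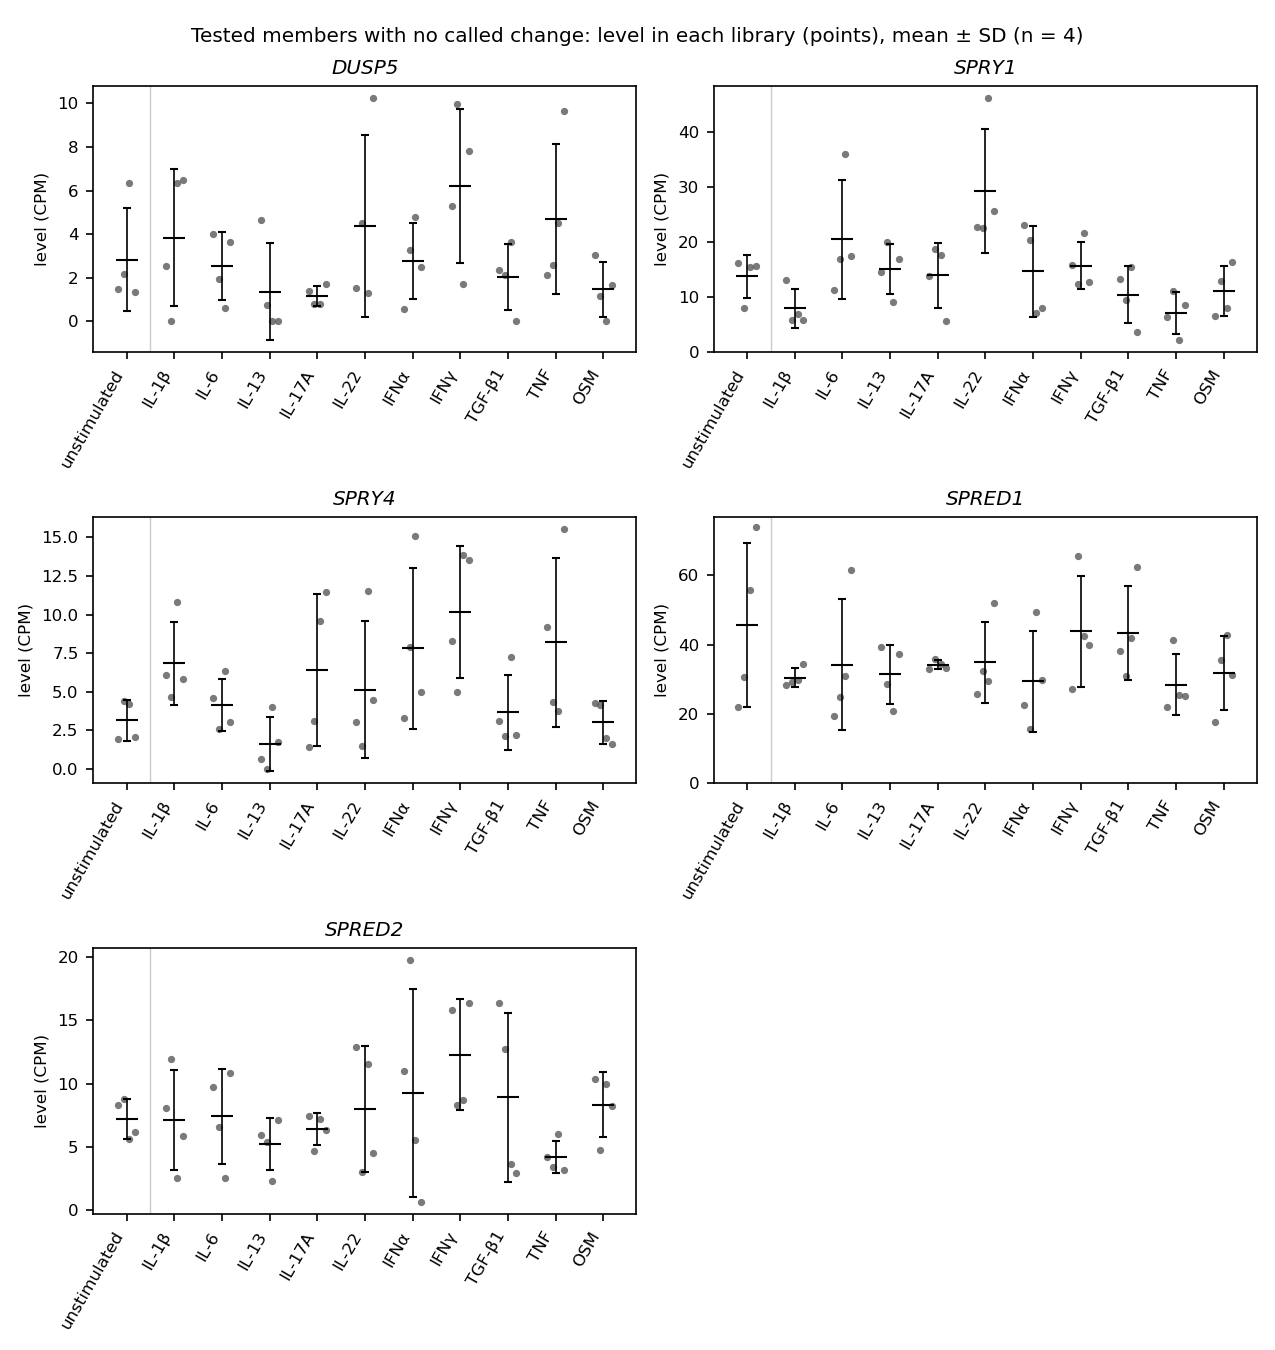
Level of DUSP5, SPRY1, SPRY4, SPRED1 and SPRED2 (vertical axes, CPM, each panel on its own scale) in each library (points) of the 11 groups (horizontal axes), with the mean and SD of 4 libraries in black. No group of these genes was called different from unstimulated cells, and the unstimulated SPRED1 libraries alone span 22.0 to 73.8 CPM.

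Over the 11 groups, most neighbours in the order of means could not be separated. For 8 of the 9 tested genes, the libraries of every group overlapped those of the next group in the order. The exception was DUSP6, for which IL-13 (42.6 ± 8.24 CPM) stood apart from the next group, IFNγ. Such overlaps were not counted over all tested genes, so they do not set these genes apart from others. The order of DUSP1 ran from TNF (101 ± 36.5 CPM) and TGF-β1 (99.4 ± 25.2) to IL-13 (20.5 ± 3.10), a ratio of 4.91. That of DUSP10 ran from IFNα (56.9 ± 8.84 CPM) to OSM (13.0 ± 2.21), a ratio of 4.38. SPRY2 ran from TNF (38.5 ± 8.29 CPM) to OSM (10.6 ± 3.23), a ratio of 3.63, and DUSP6 from IL-13 to TGF-β1 (7.0 ± 1.56), a ratio of 6.08.

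Direct comparison of 4 cytokine pairs tested whether the response differed within a pair. The pairs were TNF with IL-1β, inflammatory cytokines that both activate NF-κB, IFNα with IFNγ, OSM with IL-6, which share the receptor subunit gp130, and TGF-β1 with IL-13, both linked to fibrosis. DUSP10 was lower with OSM than with IL-6, where the libraries stood at 37.1, 44.5, 39.9 and 29.0 CPM and did not overlap those of OSM given above. The log2 difference was -1.52 ± 0.29 (95% interval -2.10 to -0.95, edgeR adjusted p = 0.000534), and DUSP10 was 1 of 9 genes called (background 2.67% of all genes). DUSP10 was also higher with IFNα, at 46.3, 66.5, 61.2 and 53.6 CPM, than with IFNγ. These groups did not overlap either, with a log2 difference of 1.23 ± 0.27 (95% interval 0.68 to 1.79, edgeR adjusted p = 0.00169), again 1 of 9 genes (background 9.39%).

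TGF-β1 and IL-13 differed in opposite directions for DUSP1 and DUSP6. DUSP1 was 4.80-fold higher with TGF-β1 than with IL-13, a log2 difference of 2.26 ± 0.32 (95% interval 1.63 to 2.90, edgeR adjusted p = 7.65e-07). DUSP6 was 6.07-fold lower, a log2 difference of -2.60 ± 0.43 (95% interval -3.47 to -1.74, edgeR adjusted p = 1.68e-05). In both genes the 4 libraries of one cytokine lay apart from the 4 of the other, and the calls were made under each alternative tried. These were 2 of 9 genes, against a background of 12.4% of all genes. DUSP10, which was low in both groups, did not differ by the test, with a log2 difference of 0.12 and a 95% interval of -0.46 to 0.70. SPRY2 was at 0.99 ± 0.43 (edgeR adjusted p = 0.131) and passed without IL-13 replicate 4 (1.48, 0.0273).

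TNF and IL-1β, which were used at different doses, differed in 0 of the 9 genes with edgeR (background 1.15%), with 2 genes at an unadjusted p under 0.05 (11.5% of all genes) and 0 called by DESeq2, which left 2 of the 9 without an adjusted p. The 2 genes were DUSP6, with a log2 difference of 1.05 (95% interval 0.25 to 1.85), and DUSP1, with 0.64 (95% interval 0.06 to 1.22), both higher with TNF. For SPRY2, which was called against unstimulated cells with TNF and not with IL-1β, the direct difference was 0.71 with a 95% interval of -0.10 to 1.52 (edgeR adjusted p = 0.505). The upper bounds of all 3 intervals were above 1 on the log2 scale.

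**Figure D4:**
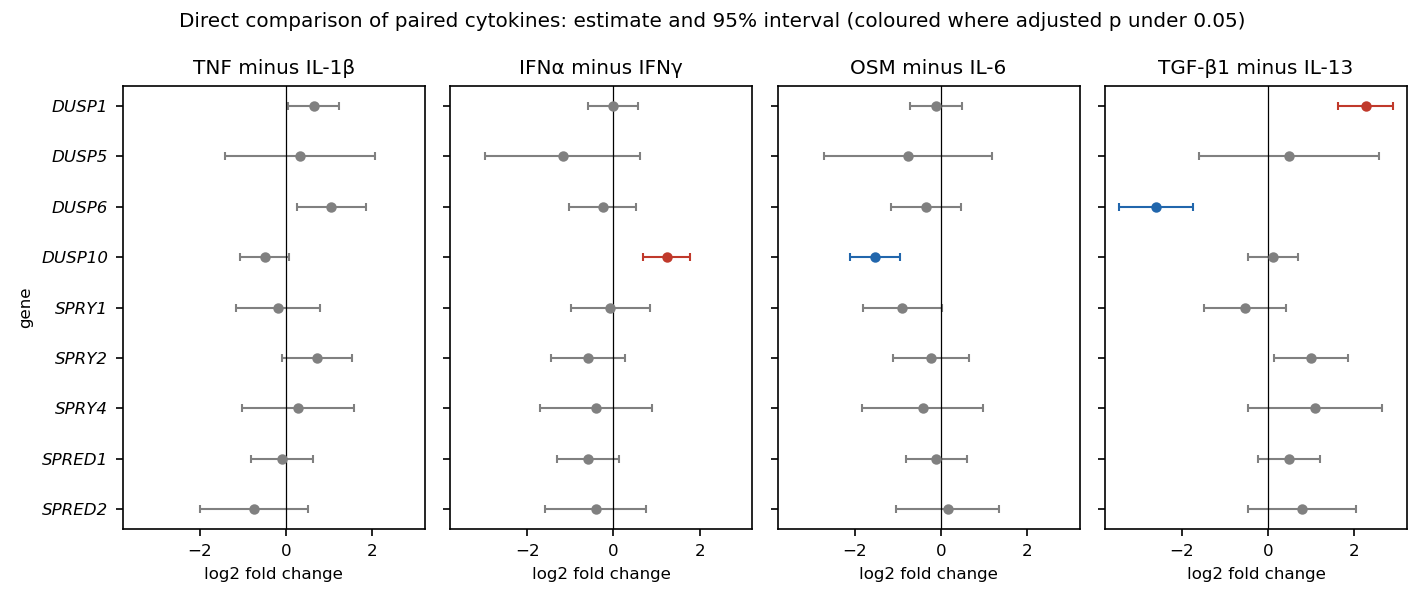
Difference between paired cytokines for each tested gene (vertical axis) as a log2 fold change with its 95% interval (horizontal axis), 1 panel for each pair. Red marks genes higher and blue genes lower in the first cytokine named at an adjusted p under 0.05, which are DUSP10 in the IFNα with IFNγ and OSM with IL-6 panels and DUSP1 and DUSP6 in the TGF-β1 with IL-13 panel.

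Other genes of the pathway were followed in 5 lists with 74 genes, of which 51 were tested. These lists were chosen with earlier results of these data known, so their shares of called genes are given as a description. Each cytokine is compared with the same 4 unstimulated libraries. Among 12 tested inhibitors of receptor, RAS or RAF signalling and other MAPK phosphatases, 1 comparison was called, a fall of NF1, the RAS inhibitor neurofibromin, with TGF-β1 (39.0 ± 13.4 against 80.3 ± 30.8 CPM, log2 fold change -1.03 ± 0.30, edgeR adjusted p = 0.0300). The NF1 libraries of both groups overlapped, and this call was lost with only the libraries of both groups. Among 15 tested genes of the RAS to ERK cascade, 1 gene was called. PTPN11, which encodes the phosphatase SHP2 that promotes RAS activation, fell with IFNα (96.9 ± 14.2 against 179 ± 10.3 CPM, -0.88 ± 0.15, edgeR adjusted p = 3.20e-05) and with IFNγ (-0.80 ± 0.15, edgeR adjusted p = 0.000215), and neither group overlapped the unstimulated libraries. The median log2 fold change over the 10 cytokines ran from -0.26 to 0.13 in the list of inhibitors and from -0.27 to 0.16 in the cascade.

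In the p38 and JNK list, 4 of 8 tested genes had calls, with 7 cytokines. No share of all tested genes called with at least 1 cytokine was computed, so this count is no result about the list. MAP3K5, the stress kinase ASK1 upstream of p38 and JNK, rose with 6 cytokines, from 12.1 ± 1.31 CPM in unstimulated cells to 46.7 ± 16.3 with IL-1β (1.95 ± 0.42, edgeR adjusted p = 0.00103), 43.5 ± 9.85 with OSM (1.84 ± 0.42) and 35.8 ± 13.4 with TNF (1.58 ± 0.42), and also with IL-17A, IFNα and IFNγ. In each of these 6 groups every library lay above the unstimulated ones. MAPK10, the JNK3 kinase, fell from 101 ± 16.6 CPM to 29.6 ± 1.79 with TNF (-1.76 ± 0.23, edgeR adjusted p = 2.75e-07) and 34.6 ± 7.42 with OSM (-1.54 ± 0.23), and also with IL-1β (-1.02 ± 0.22) and IFNγ (-1.16 ± 0.23). MAP3K8, the kinase TPL2 that links inflammatory receptors to ERK, rose with IL-1β (22.2 ± 4.71 against 4.18 ± 4.55 CPM, 2.39 ± 0.62). MAP3K7, the kinase TAK1, fell with TGF-β1 (40.3 ± 8.11 against 73.2 ± 7.80 CPM, -0.86 ± 0.24). The median of this list lay between -0.31 with IFNα and 0.12 with IL-17A.

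Transcripts known to follow ERK activity moved in both directions. IER3, an early response gene, rose from 8.20 ± 5.10 CPM to 77.1 ± 33.0 with IL-1β (3.22 ± 0.44, edgeR adjusted p = 6.28e-07) and 63.6 ± 25.2 with TNF (2.95 ± 0.44, edgeR adjusted p = 3.59e-06), and also with IL-17A (2.01), TGF-β1 (1.95) and IFNγ (1.73). PHLDA1 rose from 237 ± 26.0 CPM with IL-1β (0.87), IFNγ (0.89), TNF (0.73) and OSM (0.66) and fell with IL-13 (-0.87). EGR1, an early growth response transcription factor, fell from 787 ± 199 CPM to 329 ± 66.9 with IL-1β (-1.26) and 403 ± 91.3 with OSM (-0.97). FOSL1, a subunit of AP-1, rose with TNF (1.23) and fell with IL-13 (-1.49), and CCND1, the cyclin D1 gene, rose with IFNγ (1.19). The other gene that fell with IL-13 was ETV1, named after its values were seen, with 0.87 ± 1.73 against 13.9 ± 11.0 CPM and overlapping libraries. With IL-13, 3 of 9 tested genes of this list were called lower (2.4% of all tested genes were), with a median log2 fold change of -0.87 beside -0.05 over all tested genes. The DUSP6 mean was highest and the DUSP1 mean lowest with IL-13, but neither gene was called against unstimulated cells. The IL-13 count over all 5 lists fell from 4 to 2 or fewer without unstimulated replicate 3 or 4 or IL-13 replicate 2 or 4.

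The 7 tested receptor tyrosine kinases had calls in the lower direction only. OSM gave 3 (2.54% of all tested genes were called lower), IL-1β 2 (3.92%) and TNF 2 (6.09%). IL-13 (2.4%), IL-17A (0.925%), IFNα (4.86%) and IFNγ (5.13%) gave 1 each. All are against the same unstimulated libraries, and the shared direction was not tested, so it is no result about the list. MET, the receptor of hepatocyte growth factor, fell from 33.2 ± 17.1 CPM with IL-17A (8.20 ± 3.12, -2.02 ± 0.54), OSM (8.40 ± 6.24, -1.96 ± 0.54), IL-1β (9.18 ± 4.55, -1.82 ± 0.53) and IFNγ (10.3 ± 4.03, -1.67 ± 0.54). AXL fell with OSM (-0.82), IL-1β (-0.80) and TNF (-0.67), with libraries that overlapped those of unstimulated cells. PDGFRA fell with IL-13 (-0.76) and TNF (-0.65), FGFR1 with OSM (58.1 ± 7.37 to 29.7 ± 6.24 CPM, -0.96) and INSR, the insulin receptor, with IFNα (179 ± 35.0 to 67.7 ± 19.8 CPM, -1.41 ± 0.24, edgeR adjusted p = 1.92e-05). The median of this list ran from -0.75 with IL-13 to 0.11 with IL-6. It was -0.52 with TGF-β1, which gave 0 calls here, and -0.49 with OSM. Over all tested genes the medians with TGF-β1 and OSM were -0.02 and 0.00.

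Summed over the 5 lists, 4 of the 51 genes rose with IL-1β (7.84%, beside 3.46% of all tested genes) and 4 fell (7.84%, beside 3.92%). With OSM, 2 rose (3.92%, beside 1.42%) and 5 fell (9.8%, beside 2.54%), and with IL-13, 0 rose (beside 1.53%) and 4 fell (7.84%, beside 2.4%). With IL-17A, 2 rose (3.92%, beside 0.599%) and 1 fell (1.96%, beside 0.925%). With TNF, 4 rose (7.84%, beside 5.37%) and 3 fell (5.88%, beside 6.09%), and the same counts with IFNγ stood beside 5.52% and 5.13% of all genes. With TGF-β1, 1 rose (1.96%, beside 2.61%) and 2 fell (3.92%, beside 3.08%). The shares of the 51 genes were not tested against those of all genes. With IFNα, 1 rose (1.96%, beside 4.99%) and 2 fell (3.92%, beside 4.86%). With IL-6 and IL-22, 0 rose and 0 fell in edgeR. At an unadjusted p under 0.05, 1 of the 51 genes differed with IL-6 (2.45% of all genes) and 7 with IL-22 (10.9% of all genes), and DESeq2 called 0 with either. Over all tested genes DESeq2 called 112 with IL-22 and 1 with IL-6. With IL-22 its filter left the 9 genes described above without an adjusted p. How many of the 51 it left out was not counted. The counts move with single libraries. Without 1 library at a time they ranged from 1 to 4 for IL-13 (4 called), 0 to 4 for IL-17A (3 called), 1 to 4 for TGF-β1 (3 called), 4 to 11 for TNF (7 called) and 3 to 7 for OSM (7 called).

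**Figure D5:**
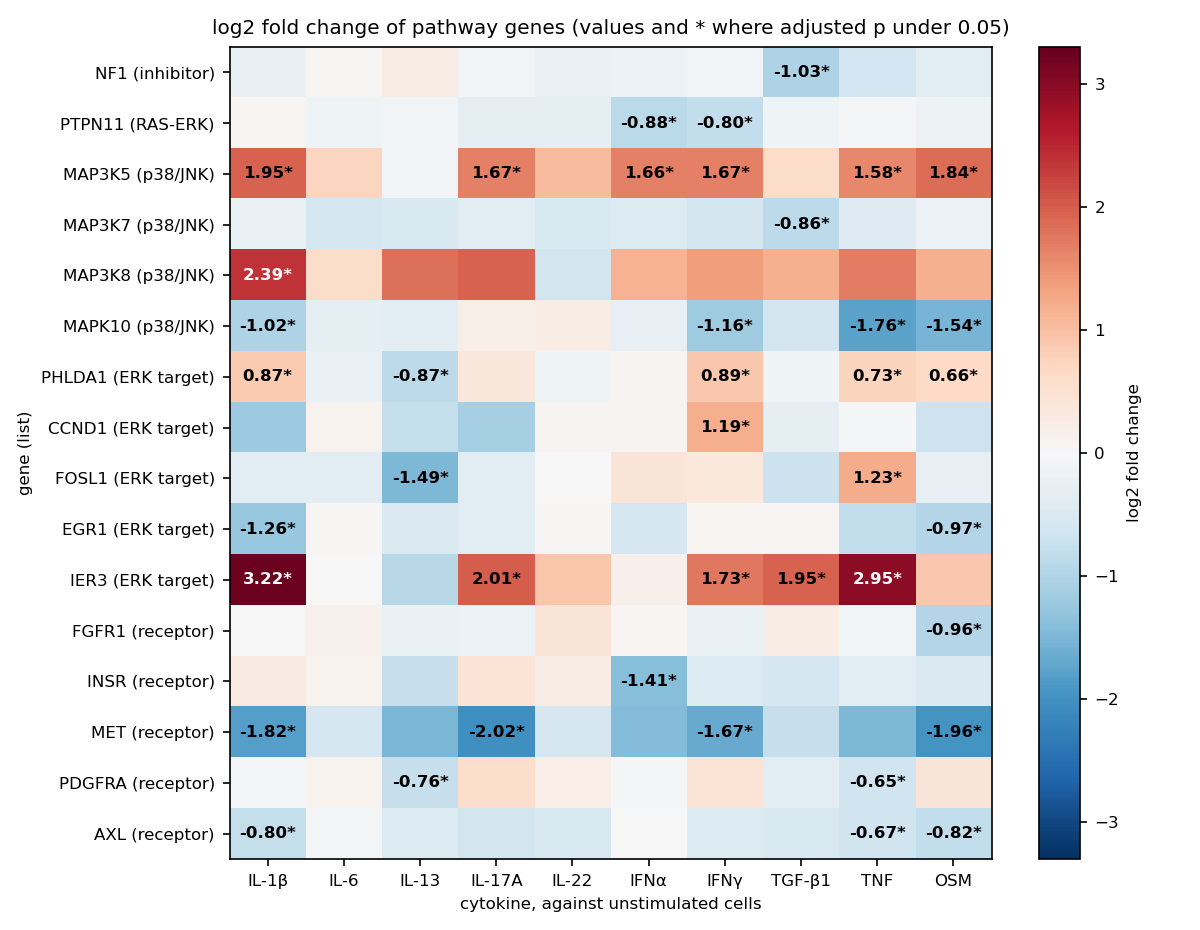
Heat map of the log2 fold change against unstimulated cells of the 16 named pathway genes (vertical axis, with their list) for each cytokine (horizontal axis), red for higher and blue for lower, with the value and an asterisk where the adjusted p (edgeR) was under 0.05. MAP3K5 is marked higher with 6 cytokines and IER3 with 5, and MET and MAPK10 are each marked lower with 4.

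The genes whose group means were most like those of the called genes were sought among 7113 genes with a mean log2 CPM of at least 3, by Pearson's r over the 11 group means of log2 CPM. These values share libraries and depth and are given as a description. For DUSP1 they were HAS2, a hyaluronan synthase (r = 0.93), LRRC8C, a subunit of volume-regulated anion channels (0.93), and SCAMP3 (0.93). For DUSP10 they were PLSCR4, of the phospholipid scramblase family (0.91), NPR3, the clearance receptor of natriuretic peptides (0.90), and NUDT7 (0.89). For DUSP6 they were CEP15 (0.91), EIF3M, a subunit of a translation initiation factor (0.86), and IDNK (0.85), and for SPRY2 they were RABIF (0.92), CENPO (0.91) and PSMC2, a proteasome subunit (0.89). By Spearman's rho, 2 of these 3 genes stayed among the nearest 3 for DUSP6, and 1 of 3 for each of the other genes.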

How the data were processed

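Ccd-18Co cells were profiled by bulk RNA-seq (NEBNext Ultra II libraries, Illumina NovaSeq6000) in 11 groups of 4 libraries, assigned from the sample labels. The authors used FASTQC (version 0.11.9) and MULTIQC (version 1.14) for quality checks and kallisto (version 0.48.0, with its defaults) for quantification. Their deposited table holds estimated counts per gene symbol, not scaled for depth. Of these values 5.77% were not whole, and they were rounded. The submitters' processing notes name hg38. The transcriptome release and strand setting are not given in the sources used here, so overlapping antisense transcripts cannot be told apart from these genes. The RNA isolation kit of each library is not given there either.

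From the counts, edgeR (version 4.0.16, R version 4.3.3) fitted all 44 libraries with 1 coefficient per group after filterByExpr and normalization by the trimmed mean of M values (glmQLFit and glmQLFTest, common biological coefficient of variation 0.331). Benjamini-Hochberg adjustment covered 9513 genes in each comparison. CPM are counts scaled to normalized library size, and intervals are at 95%. Totals of 742173 to 2213424 counts set the precision. Limits of 3 counts cover counting error only, because the reads carry no molecular identifiers. Among 66 replicate pairs 0 were identical, and the lowest chi-square per degree of freedom was 3.33. The code was tested on simulated counts.

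All 10 genes are described. Of the pathway lists, up to 5 called genes per list with the smallest adjusted p are named, and 3 similar genes per called member. The members and lists were chosen with earlier results of these data known. Alternatives were DESeq2 size factors, DESeq2's Wald test (version 1.42.0), no low-count filter, only the libraries of both groups, a replicate block, the study's fold-change threshold, and each library left out. Transcript lengths are those of Ensembl canonical transcripts in GENCODE release 44.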

Additional observations from a re-analysis of the deposited data

Results flagged for a closer look

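Of 99 groups of 4 libraries examined (9 genes in 11 groups), 5 held a library whose gap to the nearest of the others, as a share of the whole range, was above Dixon's 95% critical value. Chance flags about 1 in 20 groups, which is 4.95 of 99. The DUSP5 level of unstimulated replicate 3 was 6.33 CPM (9 counts), with the other 3 at 1.37 to 2.19 CPM. The DUSP5 level of IL-13 replicate 1 was 4.65 CPM (7 counts), with the others at 0 to 0.772 CPM. SPRY1 was low in unstimulated replicate 2, at 8.02 CPM (11 counts) against 15.5 to 16.2 CPM, and high in IL-1β replicate 1, at 13.1 CPM (26 counts) against 5.84 to 6.99 CPM. SPRY1 in IL-22 replicate 3 stood at 46.1 CPM (36 counts) against 22.6 to 25.6 CPM. Neither gene has a called change.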

How the results depend on the processing

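The 126 fold changes of single genes were recomputed under 1733 combinations with another setting: 0 calls reversed, 21 were lost and 16 were gained. The calls for DUSP10 with OSM (also against IL-6), SPRY2 with TNF, and DUSP1 and DUSP6 between TGF-β1 and IL-13 held under each of 14 alternatives. The number of the 9 tested genes called with IL-13 (1 as reported) was 0 without the low-count filter and 0 with only the libraries of both groups. With IFNα (0) it was 1, DUSP1, with DESeq2 size factors and with DESeq2's Wald test. With IFNγ (1) it was 2 with DESeq2's Wald test, which added DUSP10, and 0 with only the libraries of both groups. With TGF-β1 (2) it was 3 with DESeq2's Wald test, which added DUSP10, and 1 with only the libraries of both groups. An absolute log2 fold change above 1.5 left 0 genes with IL-13, 0 with IFNγ, 1 with TGF-β1, 1 with TNF and 0 between IFNα and IFNγ. Fewer libraries or a higher threshold are part of some of these settings, and for the others the cause was not tested.

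Of the 51 pathway genes, that threshold left 4 with IL-1β, 1 with IL-13, 1 with IFNα, 3 with IFNγ, 1 with TGF-β1, 3 with TNF and 3 with OSM. Only the libraries of both groups gave 2 with IL-13, 4 with IFNγ and 1 with TGF-β1, no low-count filter gave 5 with IL-17A, and DESeq2's Wald test gave 11 with TNF. By Spearman's rho, 1 of the 3 most similar genes was shared for DUSP1, DUSP10 and SPRY2.

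Leaving out 1 library at a time gave 0 to 1 genes with IL-13, 0 to 1 with IFNα, 0 to 2 with IFNγ, 1 to 3 with TGF-β1, 3 to 3 with TNF, 1 to 1 with OSM, 0 to 0 with IL-1β, IL-6, IL-17A and IL-22, and, between cytokines, 0 to 0 for TNF with IL-1β, 1 to 1 for IFNα with IFNγ, 1 to 1 for OSM with IL-6 and 2 to 3 for TGF-β1 with IL-13. For pathway genes it gave 7 to 11 with IL-1β, 1 to 4 with IL-13, 0 to 4 with IL-17A, 3 to 4 with IFNα, 5 to 7 with IFNγ, 1 to 4 with TGF-β1, 4 to 11 with TNF, 3 to 7 with OSM and 0 to 0 with IL-6 and IL-22. The IL-13 count fell to 2 or fewer without unstimulated replicate 3 or 4 or IL-13 replicate 2 or 4. The IL-17A count fell to 1 or 0 without unstimulated replicate 1 or 2 or IL-17A replicate 1 or 3. The TGF-β1 count was 1 without unstimulated replicate 2. The TNF count was 11 without unstimulated replicate 1 and 4 without TNF replicate 3, and the OSM count was 3 without unstimulated replicate 2 and 4 without OSM replicate 4.

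The mean correlation of deviations was 0.04 over 40 pairs of a cytokine library with the unstimulated library of its number. It was -0.01 over 120 such pairs with other numbers. Pairs of cytokine libraries were not examined, so whether the numbers pair libraries was not settled. A block for the replicate number raised the calls over all tested genes from 145 to 223 with IL-17A. It raised them from 0 to 12 with IL-22 and left them at 1 with IL-6. Of the 9 tested genes described here, this block gave 1 call with IFNα (DUSP1) and 2 with IFNγ (DUSP1 and DUSP10). With TGF-β1 it gave 3, DUSP1, DUSP6 and DUSP10 (-0.88, edgeR adjusted p = 0.0482). On raw library totals, 0 of 110 group levels moved by more than 1 SD. At 3 counts per 1.39 to 3.85 CPM, depth limits DUSP4, which was not tested, and, of the tested genes, DUSP5 and SPRY4 the most.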
